A study of Mus musculus with 2 samples.

Results

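Cycling T cells of the mouse lung are the subject of these results: 89 cells that carried RNA of the CD3 complex, the signalling chains of the T cell receptor, together with RNA of genes that are on only while a cell copies its DNA or divides. They were chosen from measured values, as cells with at least 500 gene UMIs (unique molecular identifiers, each standing for 1 captured RNA molecule), at least 200 genes and at most 20% mitochondrial UMIs. Each had at least 2 UMIs summed over Cd3d, Cd3e and Cd3g, none of the lineage genes Ebf1 (B cells), Csf1r and Mertk (macrophages) and Ptprb (endothelium), and at least 4 of 8 cell-cycle genes detected (Top2a, Mki67, Birc5, Nusap1, Cenpf, Ube2c, Kif11 and Rrm2). The 89 cells were part of 3105 T cells by the same CD3 and lineage rule and of 29837 cells past the filters. The comparison population was 2975 non-cycling T cells with 0 or 1 of the 8 genes detected.

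The cells came from 2 single-cell libraries of live lung cells sorted without enrichment from perfused, enzyme-digested lungs of adult mice on the C57BL6/J background, 1 mouse labelled GFI1 KO and 1 labelled GFI1 WT. The KO is carried by the whole animal and not only by its T cells. GFI1 is a zinc finger repressor of blood cell genes. The study asked how lung immune cells differ with and without it, and its methods state 2 samples per genotype, of which 1 each was analysed here. There are thus no replicates, no difference below carries a test or a p-value, and genotype cannot be told apart from the mouse or the library. All intervals are 95% intervals and cover counting error only.

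Under the GFI1 KO label the library held 10700 cell barcodes and 116825535 gene UMIs, and 28 of its 732 T cells were cycling. The library labelled GFI1 WT held 19515 barcodes and 162599284 gene UMIs, and 61 of its 2373 T cells were cycling. The libraries had 74 barcodes in common, none of them a cycling T cell. Gfi1 RNA did not check the labels: it was counted with 10 UMIs in 7 of 28 cycling cells (30.4 CPM, UMIs per 1000000) in the library labelled GFI1 KO and with 11 UMIs in 8 of 61 (11.6 CPM) in the other. A deleted allele can still be transcribed, and counts by exon were not analysed here.

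T cells of a resting tissue are mostly quiescent, held in G0 by a set of transcription factors and anti-proliferative proteins. After stimulation through the receptor and by cytokines such as IL-2, IL-7 and IL-15 they pass through G1, build up nucleotides and sugar breakdown, copy their DNA in S phase behind the MCM helicase and the PCNA clamp, and then condense and segregate their chromosomes in G2 and M phase. Genes of S phase are driven largely by E2F factors and genes of G2 and M by complexes of MuvB with B-MYB and FOXM1, which act through CHR elements close to transcription starts, often beside CCAAT elements that NF-Y binds. In the lung, CD4 T cells, CD8 T cells, regulatory T cells and γδ T cells can all divide in place or arrive while dividing.

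Cycling T cells were rich in RNA. They had a median of 14701 UMIs and 3934.5 genes under the KO label against 6204.5 UMIs and 2195.5 genes in non-cycling T cells of that library. Under the WT label the medians were 16975 UMIs and 4495 genes against 5959 UMIs and 2167 genes, so that cycling cells held 2.37 and 2.85 times the UMIs of their non-cycling counterparts. Mitochondrial UMIs took similar shares, with medians of 3.17% and 2.96% in cycling and 3.47% and 3.11% in non-cycling T cells. The doublet caller Scrublet marked 0 of 28 cycling cells under the KO label and 1 of 61 (1.64%) with the WT label, beside 0.145% and 1.84% of non-cycling T cells. Since a deeper cell shows more genes, shares of cells with a given gene are, for most genes that are compared by detection, also given as the share that 3000 UMIs per cell would be expected to show.

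T cell receptor RNA was counted in nearly every cycling cell, and a few cells of the WT label also carried myeloid markers. Cd3 genes were required by the rule, and the receptor chains below were not. Trbc2, a constant segment of the T cell receptor β chain, was detected in 28 of 28 and 61 of 61 cycling cells, at 1946 CPM (1798 to 2103) under the KO label and 1709 CPM (1626 to 1794) with the WT label. Trac, the constant segment of the α chain, was detected in 26 of 28 and 57 of 61 cells. The proliferation marker Mki67 was found in 27 of 28 and 61 of 61 cells, a description since the rule used it. B cell markers Ms4a1 and Pax5 were at 0 UMIs in the cycling cells of both libraries. Under the WT label 3 of the 61 cells had 901, 1888 and 2193 UMIs of the CD11c tag, a protein of dendritic cells and macrophages, and the highest under the KO label was 49. The first of the 3 was the cell that Scrublet marked, and the last was one of the 2 cells of that library with Trdc alone.

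Most T cells were either clear of the 8 cycle genes or carried many of them. None of the 8 was detected in 589 T cells under the KO label and 2085 with the WT label, 1 in 99 and 202, 2 in 9 and 17, and 3 in 7 and 8. Within the rule, 8 cells under the KO label and 32 with the WT label had all 8. Just outside it, cells with 3 of the genes had medians of 5 and 7.5 UMIs over the 8 genes, and cells just inside, with 4 genes, had 9 and 13. Those just inside were 3 and 5 cells.

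Of all T cells, 3.83% (2.56 to 5.48) were cycling in the library labelled GFI1 KO and 2.57% (1.97 to 3.29) in the library labelled GFI1 WT. The difference of 1.25 percentage points had an interval from -0.204 to 3.02, and so was within counting error. With other numbers of the 8 genes required, the interval did not hold 0 for at least 1 gene (7.40 points, 4.26 to 10.7), 2 (2.39 points, 0.575 to 4.49) and 3 (1.87 points, 0.256 to 3.79), and held 0 for at least 5, 6, 7 and 8. With both libraries set to the same mix of CD4 and CD8a tag classes the shares were 4.0% and 2.51%. Each cell with at least 2 Cd3 UMIs was also thinned to 3000 UMIs, and the whole rule, lineage genes included, was read on the thinned counts. Cells whose lineage UMIs were lost in thinning could thus enter. The difference then shrank to 0.375 points (-0.854 to 1.94), from 16 of 667 and 44 of 2174 cells. With all 8 genes the shares were 1.09% and 1.35%, a difference of -0.256 points (-1.08 to 0.876).

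Without thinning, a larger share of CD4 than of CD8 cells was cycling under the WT label. Among T cells with Cd4 RNA alone of Cd4, Cd8b1 and Trdc, 7 of 102 (6.86%) were cycling under the KO label and 29 of 526 (5.51%) with the WT label. Among those with Cd8b1 RNA alone, 14 of 356 (3.93%) and 16 of 1067 (1.5%) were cycling, a difference of 2.43 points (0.440 to 5.09). The antibody tags were not used by the rule. With at least 30 UMIs of the CD8a tag, 17 of 382 cells (4.45%) and 17 of 1189 cells (1.43%) were cycling, a difference of 3.02 points (0.997 to 5.67). With the CD4 tag the counts were 8 of 195 (4.10%) and 38 of 952 (3.99%), a difference of 0.111 points (-2.62 to 4.10).

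At equal depth, with the whole rule read on thinned counts, the CD8 difference was within counting error. Thinned to 3000 UMIs, it was 0.478 points (-1.17 to 2.88) for Cd8b1 RNA. For the CD8a tag the thinned shares were 3.01% (11 of 366) and 1.35% (15 of 1111), a difference of 1.66 points (-0.0735 to 4.04). Thinned shares of CD4-tagged cells were 2.5% (0.685 to 6.28) and 2.87% (1.87 to 4.21), and under the WT label that interval overlapped the one of CD8a-tagged cells (0.758 to 2.22). By RNA the thinned WT shares were 2.11% for Cd4 and 1.52% for Cd8b1. Non-cycling CD8a-tagged cells had medians of 7249 UMIs under the KO label and 6346 with the WT label, and cycling ones 16300 and 16493. Of T cells with a Trdc UMI, the constant segment of the δ chain, 5 of 97 (5.15%) and 4 of 129 (3.10%) were cycling, with a difference of 2.05 points (-3.74 to 8.90).

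**Figure D1:**
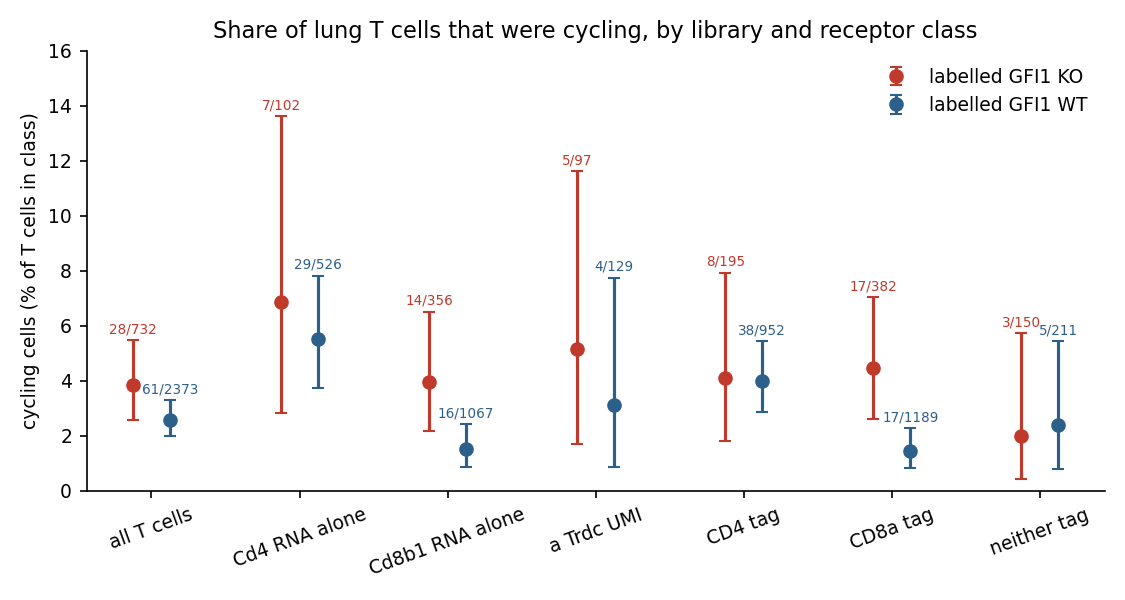
Cycling cells as a percent of the T cells in each class, with points for the libraries labelled GFI1 KO (red) and GFI1 WT (blue), exact 95% binomial intervals as bars and the counts above them. The CD8a tag class shows the wider gap between labels (4.45% against 1.43%), while the CD4 tag class is near 4% in both, and these shares are not thinned for depth.

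The makeup of the cycling population differed between the libraries accordingly. Under the KO label 17 of 28 cycling cells (60.7%, 40.6 to 78.5) carried the CD8a tag, 8 (28.6%, 13.2 to 48.7) the CD4 tag, 3 neither and 0 both. Under the WT label 38 of 61 (62.3%, 49.0 to 74.4) carried the CD4 tag, 17 (27.9%, 17.1 to 40.8) the CD8a tag, 5 neither and 1 both. The KO minus WT difference was 32.8 points (8.90 to 53.6) for CD8a and -33.7 points (-53.3 to -9.61) for CD4. By RNA the Cd4-alone class made up 25% and 47.5% of cycling cells, a difference of -22.5 points (-42.0 to 1.18) whose interval held 0. Non-cycling T cells differed less in these tags: 52.2% and 50.9% carried the CD8a tag and 26.6% and 39.3% the CD4 tag. They differed more in cells with neither tag, 20.5% and 8.96%, beside 10.7% and 8.20% of cycling cells.

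RNA classes of a single gene mostly followed the tags, and cells with Cd8b1 beside another of the genes did not always. All 14 Cd8b1-alone cells under the KO label and all 16 with the WT label carried the CD8a tag. All 7 Cd4-alone cells of the first library carried the CD4 tag, as did 27 of 29 in the second. Cells with Trdc alone, 3 and 2, carried neither tag. Of cells with both Cd8b1 and Trdc RNA, 2 under the KO label and 1 with the WT label carried the CD8a tag. Another 1 with the WT label carried the CD4 tag. Cd8b1 RNA was in 6 of 38 CD4-tagged cycling cells with the WT label. The 5 cycling cells with both Cd4 and Cd8b1 RNA were all in the library labelled GFI1 WT and carried the CD4 tag alone. Of the 28 under the KO label 0 were of this kind, where 3 cells would be 10.7% and the exact upper bound is 12.3%. By RNA the Cd8b1 class made up 50% and 26.2% of cycling cells, a difference of 23.8 points (0.545 to 45.8) that became 7.95 points (-19.3 to 37.9) after thinning, which chose the cycling cells anew (16 and 44) and also cost class calls: the Cd4-alone share of cycling cells was then 6.25% and 15.9%. The interval also held 0 with 3 of the 8 genes required (-2.12 to 38.4), with 8 more lineage genes excluded (-4.11 to 45.1), without cells with myeloid or B cell tags (-5.28 to 42.2) and without the 3 cells with at least 3 class II UMIs (-1.07 to 44.6). By protein, cells with the CD8a tag, alone or with CD4, differed by 31.2 points (7.20 to 52.1), and by 32.4 points (0.715 to 57.0) when cycling cells were chosen after thinning.

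**Figure D2:**
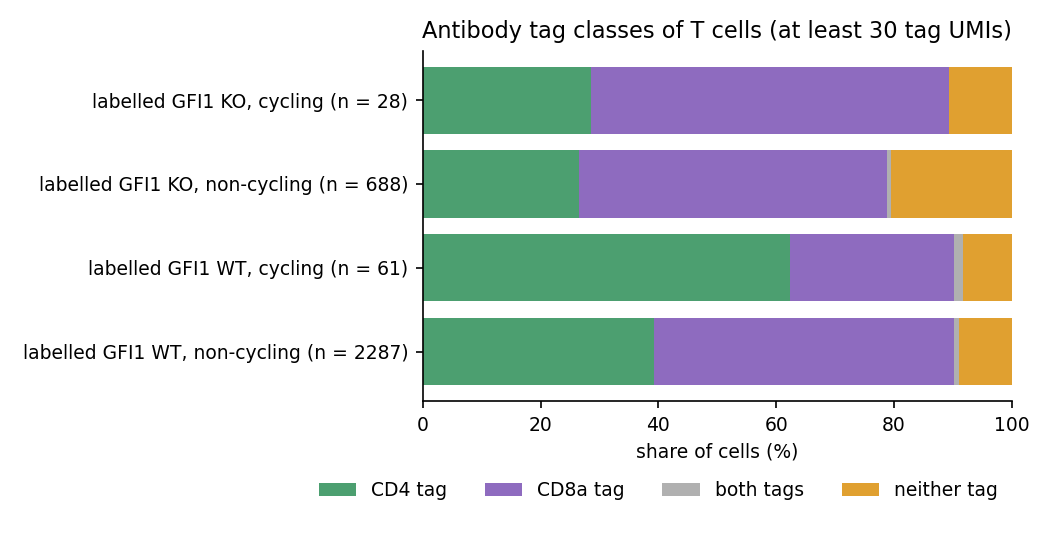
Shares of cycling and non-cycling T cells of each library that had at least 30 UMIs of the CD4 tag, the CD8a tag, both or neither, as percent of cells with n beside each bar. CD4-tagged cells make up 62.3% of cycling cells under the WT label and 28.6% under the KO label, while CD8a-tagged cells are near 50% of non-cycling cells in both.

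Levels of the 8 cycle genes are given first, as a description, since the rule chose the cells on them. Levels were summed UMIs over the cycling cells of a library per 1000000 UMIs (CPM) of all genes other than ribosomal, mitochondrial and Gm- genes, and no level is compared between genes. Top2a, the topoisomerase that untangles replicated DNA, was at 1218 CPM (1102 to 1343) under the KO label and 1267 CPM (1196 to 1341) with the WT label, beside 16 and 11.3 CPM in non-cycling T cells. Birc5, which encodes the mitotic protein survivin, was at 554 and 577 CPM beside 2.28 and 0.489. Rrm2, the ribonucleotide reductase subunit that limits the supply of DNA precursors, was at 332 and 301 CPM beside 3.91 and 1.96. As the rule used these 8 genes, neither their gap to non-cycling cells nor their order between the labels is a finding. They summed to 4418 and 4846 CPM over all cycling cells, to 2484 and 5191 CPM in the 8 and 38 CD4-tagged ones, and to 5330 and 4635 CPM in the CD8a-tagged ones. Single genes in CD4-tagged cells ran from a KO to WT ratio of 0.139 for Nusap1 to 1.34 for Rrm2.

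Genes of DNA replication that were not part of the rule were high in the same cells. The list of 50 such genes summed to 9041 and 8361 CPM in cycling cells of the libraries labelled GFI1 KO and GFI1 WT, beside 1202 and 1227 CPM in non-cycling T cells. Under the KO label 41 of 42 measured members were over 2-fold higher in cycling cells, and under the WT label 47 of 49, where 8.9% and 13.6% of all genes were. The rule split the cells on related genes, so nothing is read from these counts. Pclaf, a partner of the PCNA clamp, was at 1023 and 1048 CPM beside 9.45 and 0.880 CPM. Dut, which removes dUTP from the nucleotide pool, was at 545 and 490 CPM beside 65.2 and 49.9. The clamp gene Pcna was at 515 and 475 CPM beside 90.0 and 124, ratios of 5.72 (4.69 to 6.95) and 3.83 (3.43 to 4.27). Slbp, which binds the stem-loop of histone messages, was at 384 and 371 CPM beside 118 and 135.

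Mitosis genes outside the rule were high as well. The 73 listed genes summed to 19707 CPM under the KO label and 21786 CPM with the WT label, beside 2227 and 2345 in non-cycling cells, with 49 of 51 and 69 of 71 measured members over 2-fold higher, where 8.9% and 13.6% of all genes were, and again nothing is read from these counts. Hmgb2, a chromatin protein of dividing cells, was at 4982 CPM (4743 to 5229) and 5755 CPM (5603 to 5910), and it was detected in all 28 and all 61 cells. Stmn1, which destabilises microtubules before the spindle forms, was at 1650 and 1471 CPM beside 61.9 and 45.8. The tubulin genes Tubb5 and Tuba1b were at 1501 and 1163 CPM under the KO label and 1788 and 1238 CPM with the WT label.

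Histone genes that are switched on with DNA synthesis followed. Over 66 genes they summed to 3904 and 3698 CPM beside 659 and 573 CPM, with 14 of 18 and 27 of 36 measured members over 2-fold higher, where 8.9% and 13.6% of all genes were, and 1 lower in each library, where 14.6% were. H1f5, a linker histone, was at 1300 CPM (1180 to 1430) and 1120 CPM (1054 to 1190) beside 8.15 and 4.20. H1f2, another linker histone, had similar levels in cycling and non-cycling cells, 198 against 157 CPM and 154 against 120 CPM. Most replication-dependent histone messages lack a poly(A) tail, which 3′ libraries capture, and their levels here hold only what was captured.

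**Figure D3:**
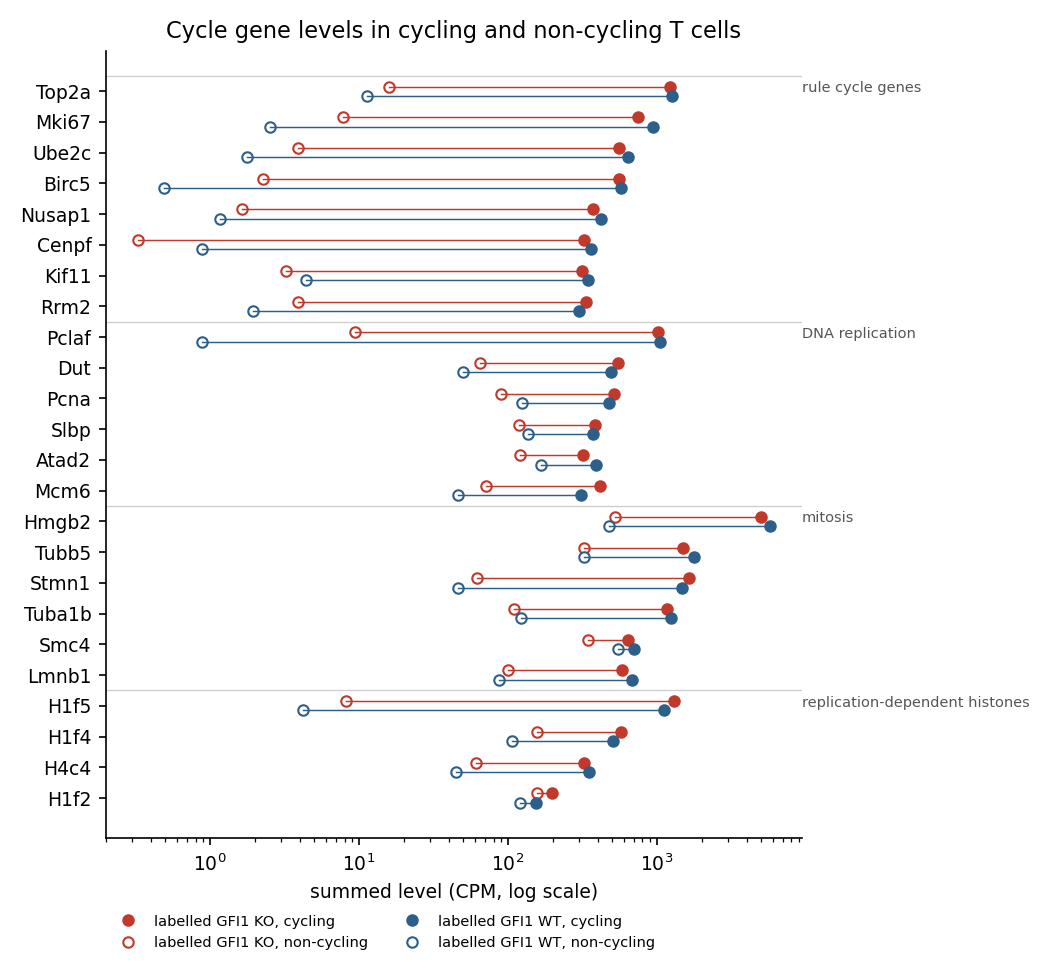
Summed level of single cycle genes (CPM, log axis) in cycling (filled) and non-cycling (open) T cells of the libraries labelled GFI1 KO (red) and GFI1 WT (blue), grouped by list, with lines joining the populations of a library. Filled points of the labels, which pool CD4 and CD8 cells, lie close together for each gene, and Smc4 and H1f2 show the shortest lines.

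Promoter letters were read for the 8 genes of the rule and for the 4 replication and 4 mitosis genes with the most UMIs in cycling cells, so counts chose the genes. RefSeq promoter sequences (GRCm38.p6, a different build from the GRCm39 of the count files, 250 bases before each start) were found for 15 of these 16. The CHR element, searched as TTTGAA or TTCGAA on both strands, occurred in 5 of 15, beside 17.1% of all 32851 promoters, and CCAAT on both strands in 11 of 15, beside 33.8%. Both occurred together in 5 of 15, beside 6.02%. The letters TTTCGCGC, TTTGGCGC or TTTCCCGC of an E2F site were in 0 of 15 and in 1.53% of all promoters. The strings differ from each other, though matches can share bases, as a CCAAT match on each strand does once in Ube2c. A match is a description of the window and not a bound site. The 4 genes of the rule that held both elements were Top2a, Mki67, Ube2c and Kif11, chosen for display after their motif counts were seen, with Hmgb2 as the fifth. They lie at chr11:99024190-99024439 (minus strand), chr7:135716380-135716629 (minus), chr2:164769679-164769928 (plus) and chr19:37376132-37376381 (plus). Each is shown 5′ to 3′ on the gene's strand, with CHR and CCAAT letters, or their reverse complements, in capitals.
Top2a: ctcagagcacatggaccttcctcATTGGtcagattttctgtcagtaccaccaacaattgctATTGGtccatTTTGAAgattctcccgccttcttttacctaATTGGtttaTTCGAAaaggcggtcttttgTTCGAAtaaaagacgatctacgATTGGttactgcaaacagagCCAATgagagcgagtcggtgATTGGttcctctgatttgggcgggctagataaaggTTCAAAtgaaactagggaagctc
Mki67: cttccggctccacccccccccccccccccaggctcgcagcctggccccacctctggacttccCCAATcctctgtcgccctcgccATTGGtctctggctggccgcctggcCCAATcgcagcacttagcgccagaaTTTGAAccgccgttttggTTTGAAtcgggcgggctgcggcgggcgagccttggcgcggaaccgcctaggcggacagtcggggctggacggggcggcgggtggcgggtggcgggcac
Ube2c: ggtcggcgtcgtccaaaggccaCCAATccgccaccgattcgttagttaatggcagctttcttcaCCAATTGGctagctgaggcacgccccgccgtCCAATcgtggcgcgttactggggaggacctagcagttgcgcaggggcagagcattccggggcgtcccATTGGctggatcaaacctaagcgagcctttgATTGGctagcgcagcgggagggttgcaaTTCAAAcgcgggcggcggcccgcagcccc
Kif11: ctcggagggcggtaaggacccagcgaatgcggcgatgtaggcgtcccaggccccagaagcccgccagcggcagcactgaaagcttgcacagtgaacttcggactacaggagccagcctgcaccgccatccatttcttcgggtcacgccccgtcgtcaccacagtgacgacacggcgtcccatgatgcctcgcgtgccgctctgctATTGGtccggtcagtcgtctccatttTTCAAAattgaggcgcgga
Top2a held 4 CHR matches and 6 CCAAT matches, Mki67 held 2 and 3, Ube2c held 1 and 6, and Kif11 held 1 and 1.

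Nearly all cycling cells held more mitosis than replication UMIs. The mitosis list had 73 genes and the replication list 50, and the rule chose the cells, so this excess is not read as a cycle phase. As a share of replication plus mitosis UMIs, replication took 31.4% (30.5 to 32.4) under the KO label and 27.7% (27.2 to 28.3) with the WT label. Thinned to 3000 UMIs the gap of 3.71 points became 2.10 points (-0.773 to 5.03), within counting error. The per-cell share ran from 2.23% to 53.5% with a median of 34.7% under the KO label, and from 2.83% to 62.4% with a median of 23.9% under the WT label, so the ranges overlapped almost fully. More replication than mitosis UMIs were found in 2 of 28 and 3 of 61 cells, and 12 and 13 cells lay between 40% and 60%, near that dividing line. Under 20% replication lay 8 and 23 cells, and over 60% lay 0 and 1. CD4-tagged cycling cells had summed shares of 36.7% and 27.0%, and CD8a-tagged ones 29.5% and 28.4%. The gap between labels was thus wider in CD4-tagged cells, of which the KO label had 8.

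**Figure D4:**
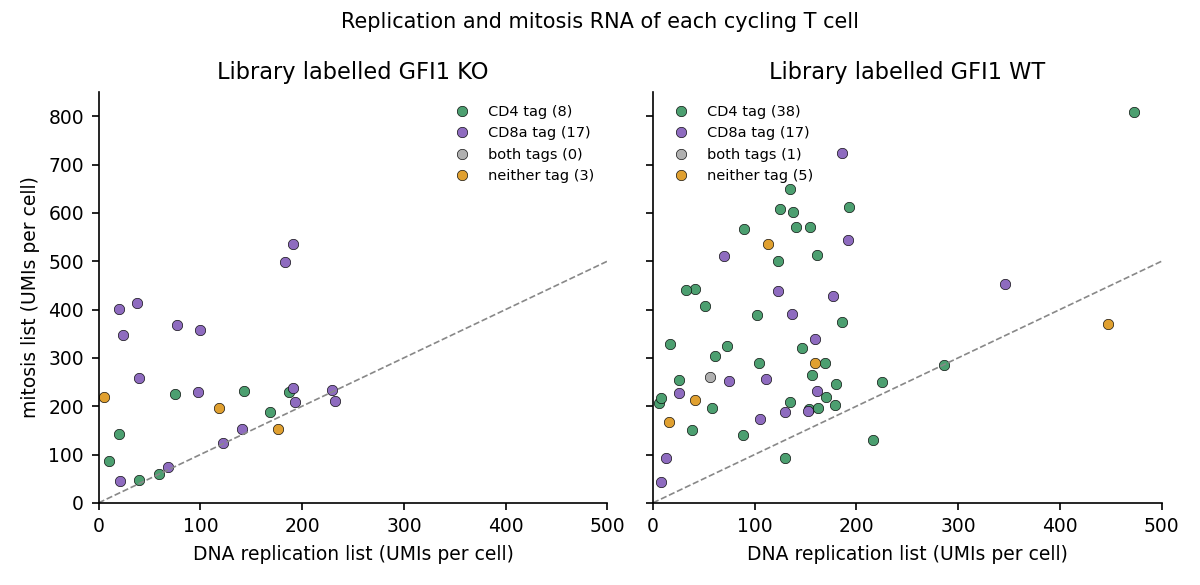
UMIs of the DNA replication list (x axis) and of the mitosis list (y axis) in each cycling T cell, coloured by antibody tag class, with a dashed line where both are equal. Cells of both libraries fan out from near the dashed line to high mitosis counts, and 2 of 28 and 3 of 61 lie below it.

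Some of the genes that hold T cells in quiescence were lower in cycling cells, and their summed level was lower in both libraries. The list of 25 cell-cycle brakes and quiescence factors summed to 4957 and 5387 CPM in cycling cells, beside 10057 and 12519 CPM in non-cycling cells of the libraries labelled GFI1 KO and GFI1 WT. Over 2-fold lower were 6 of 22 and 7 of 23 measured members, where 14.6% of all genes were in each library, 3 and 5 members were over 2-fold higher, where 8.9% and 13.6% were, and 13 and 11 lay within 2-fold. Btg1, an anti-proliferative factor of resting lymphocytes, was at 518 CPM (443 to 602) and 569 CPM (522 to 619) beside 2525 and 2662. Foxp1, a guard of naive T cell quiescence, was at 569 and 637 CPM beside 1453 and 2639. Klf2, which keeps T cells quiescent and recirculating, was at 892 and 1058 CPM beside 1623 and 1690, a smaller gap. Btg2, a paralog of Btg1, was at 301 and 399 CPM beside 773 and 743.

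The naive and stem-like list was lower in cycling cells as well. Its 11 genes summed to 2807 and 3180 CPM in cycling cells beside 8565 and 13164 CPM in non-cycling ones, with 7 of 11 and 9 of 11 over 2-fold lower, where 14.6% of all genes were in each library, and none higher, where 8.9% and 13.6% were. Satb1, a chromatin organiser of naive T cells, was at 588 and 700 CPM beside 2413 and 3983. Il7r, the receptor chain for the survival cytokine IL-7, was at 487 CPM (415 to 569) and 246 CPM (215 to 279) beside 1973 and 1826, and the label ratio within cycling cells was 1.98 (1.61 to 2.44). Bach2, a repressor of effector genes, was at 274 and 586 CPM beside 1255 and 2494, and Lef1 at 627 and 711 CPM beside 1214 and 2440.

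Detection at equal depth went the same way as the levels. Il7r was found in 82.1% and 63.9% of cycling cells, and the expected shares at 3000 UMIs were 57.9% and 35.8%, beside 85.8% and 87.4% of non-cycling cells at that depth. Ccr7, the lymph node homing receptor, was expected in 17.1% and 27.0% of cycling cells at 3000 UMIs beside 39.8% and 55.9% of non-cycling ones. The protein of Il7r, CD127, had medians of 7.5 and 10 tag UMIs on cycling cells and 15 and 14 on non-cycling cells, so tag and RNA were both lower.

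Summed levels of sugar and nucleotide metabolism genes were higher in cycling cells, and most glycolysis members lay within 2-fold. The glycolysis list of 14 genes summed to 4315 and 3731 CPM beside 2155 and 1478 CPM, with 5 of 13 and 6 of 14 measured members over 2-fold higher, where 8.9% and 13.6% of all genes were, and 0 lower, where 14.6% were. Gapdh was at 1635 and 1476 CPM beside 578 and 379, Ldha, which regenerates NAD+ as lactate is made, at 646 and 592 CPM beside 368 and 243, and Pkm, the last step of glycolysis, at 545 and 408 CPM beside 229 and 163. Genes for nucleotide and folate-dependent synthesis summed to 3779 and 2716 CPM beside 2314 and 1654 CPM, with 13 of 22 and 7 of 23 measured members over 2-fold higher and 0 lower. Nme2, a nucleoside diphosphate kinase, differed little between populations of a library, 1586 against 1312 CPM and 1027 against 738 CPM, and was higher under the KO label in both.

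The list of G1 entry and growth genes was near level, 4793 against 4392 CPM under the KO label and 3722 against 4109 CPM with the WT label. Its members went both ways. Eif5a, a translation factor, was at 1041 and 621 CPM beside 497 and 324, whereas the G1 cyclin Ccnd3 was at 365 and 318 CPM beside 944 and 1252, and Ccnd2 at 189 and 195 CPM beside 411 and 424. Cdk4, the kinase these cyclins bind, was at 167 and 136 CPM beside 70.1 and 41.9. Activation and checkpoint genes summed to 4123 and 4120 CPM in cycling cells, a ratio of 1.00 (0.94 to 1.06) between the labels, beside 4183 and 3195 CPM in non-cycling cells. Icos, a costimulatory receptor, went in opposite directions, with 542 against 902 CPM under the KO label and 674 against 490 CPM with the WT label, and that difference was not tested.

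Foxp3, Ctla4 and Ikzf2 of the regulatory T cell list were counted in a larger share of CD4-tagged cycling than non-cycling cells. Under the KO label the cycling and non-cycling intervals overlapped for each of these genes (Foxp3, 8.52 to 75.5% and 8.14 to 18.3%). With the WT label they did not. Foxp3, the defining transcription factor of the lineage, was detected in 3 of 8 CD4-tagged cycling cells (37.5%) under the KO label and 13 of 38 (34.2%) with the WT label, beside 12.6% and 4.68% of CD4-tagged non-cycling cells and 0.194% and 0.0593% of B cells. B cells had medians of 4159 and 4538 UMIs. At 3000 UMIs per cell the expected shares were 19.2% and 14.0% in cycling and 9.55% and 3.50% in non-cycling CD4-tagged cells. No CD8a-tagged cycling cell, of 17 in each library, had a Foxp3 UMI. Ctla4, the inhibitory receptor that regulatory T cells carry, was found in 8 of 8 and 31 of 38 CD4-tagged cycling cells, beside 56.3% and 28.0% of non-cycling ones, and in 8 and 9 of the 17 CD8a-tagged cycling cells of each library. Ikzf2, which encodes Helios, was in 6 of 8 and 27 of 38 CD4-tagged cycling cells, beside 39.9% and 13.6% of non-cycling ones. It was also in 6 of 17 and 12 of 17 CD8a-tagged cycling cells, 35.3% and 70.6%. At 3000 UMIs the expected Ikzf2 shares of cycling cells were 69.1% and 58.2% with the CD4 tag and 28.1% and 47.8% with the CD8a tag, and those of Ctla4 were 87.1% and 58.3% and, with the CD8a tag, 22.9% and 26.0%.

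Over the whole regulatory list the gap between the labels closed with an equal class mix and after thinning, which also chose the cells anew. The 14 genes summed to 2071 CPM in cycling cells under the KO label and 2907 CPM with the WT label, a ratio of 0.712 (0.654 to 0.775). With the RNA classes Cd4 alone, Cd8b1 alone and other weighted equally in both, the ratio was 1.01, and thinned to 3000 UMIs it was 1.01 (0.803 to 1.27). Within CD4-tagged cycling cells the list was at 4968 and 3992 CPM, beside 4088 and 1333 CPM in CD4-tagged non-cycling cells. The WT label thus had the wider gap between cycling and non-cycling CD4 cells, and that difference was not tested. Over all T cells 0 of 12 measured members were over 2-fold higher in cycling cells under the KO label and 9 of 13 with the WT label, where 8.9% and 13.6% of all genes were, and 1 and 0 were lower, where 14.6% were. In all cycling cells Ikzf2 was at 591 CPM (511 to 680) and 1230 CPM (1160 to 1303), and Capg, an actin capping protein that regulatory T cells share with other effector cells, at 548 and 221 CPM. Between the labels 1 of 11 measured members of the list was over 2-fold higher under KO and 6 were over 2-fold lower, where 2.51% of all genes were higher and 7.18% lower.

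Gzmb was counted in a larger share of CD8a-tagged cycling than non-cycling cells, while the cytotoxic list summed over these cells went opposite ways in the libraries. Gzmb, the serine protease granzyme B, singled out after its values were seen, was found in 15 of 17 CD8a-tagged cycling cells (88.2%) under the KO label and 9 of 17 (52.9%) with the WT label, beside 27.0% and 10.0% of CD8a-tagged non-cycling cells. Expected shares at 3000 UMIs were 54.4% and 38.8% in cycling and 20.8% and 6.89% in non-cycling cells, with 0.447% and 1.44% in B cells. The granule protein gene Nkg7 was in 17 of 17 cells in each library, beside 88.0% and 75.5% of CD8a-tagged non-cycling cells, and at 3000 UMIs 97.4% and 80.8% were expected beside 75.9% and 55.9%. Gzmb levels over all cycling cells were 658 CPM (573 to 752) and 197 CPM (170 to 227) beside 216 and 73.8 in non-cycling cells, and the label ratio in CD8a-tagged cycling cells was 1.56 (1.23 to 1.99).

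Members of the type 1 and cytotoxic list went both ways. Over 2-fold higher in cycling than non-cycling T cells were 3 and 6 of 22 measured members, where 8.9% and 13.6% of all genes were, and 2 and 4 were lower, where 14.6% were. The chemokine gene Ccl5 had a lower summed level in cycling cells of both libraries, 1529 and 866 CPM beside 4786 and 2378. Its expected detection at equal depth went the other way under the WT label, 30.9% of cycling beside 19.9% of non-cycling cells. Under the KO label it was 34.0% beside 37.4%. In CD8a-tagged cells these shares were 50.2% beside 23.4% with the WT label and 55.9% beside 58.5% under the KO label. Stat4, which relays IL-12, was at 1051 and 989 CPM beside 1396 and 1387. Gzma, the companion protease granzyme A, was at 457 and 477 CPM beside 311 and 307. The summed list was at 7418 and 4358 CPM in cycling cells and at 9840 and 5831 CPM in non-cycling ones, so it was higher under the KO label in both. Within cycling cells 12 of 21 measured members were over 2-fold higher under the KO label and 1 was lower, where 2.51% and 7.18% of all genes were. The label ratio of the list was 1.70 (1.62 to 1.79), 1.32 with the RNA classes weighted equally, and in CD8a-tagged cycling cells the levels were 10120 and 8485 CPM. In CD4-tagged cycling cells the list was lower under the KO label, 2118 and 2746 CPM (ratio 0.771, 0.644 to 0.918). CD8a-tagged non-cycling cells were at 13974 and 7165 CPM, so the list was lower in cycling CD8 cells under the KO label and higher with the WT label, a difference that was not tested.

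Type 17 and γδ list levels were higher under the KO label, and the γδ genes there rested on few cells. The γδ list of 14 receptor segments and factors summed to 588 CPM in cycling cells under the KO label and 67.5 CPM with the WT label, beside 587 and 118 CPM in non-cycling cells. With 8 more lineage genes excluded, cycling cells were at 387 and 75.4 CPM. The label ratio then fell from 8.71 to 5.13. In CD8a-tagged cycling cells the list was at 177 and 24.7 CPM (ratio 7.18, 3.01 to 20.8), beside 48.1 and 26.3 CPM in non-cycling ones. In CD4-tagged cycling cells it was at 0 and 47.3 CPM. Over all cycling cells Trdc was at 283 CPM (93 UMIs in 5 cells) and 7.38 CPM (7 UMIs in 4 cells). Of the 93 UMIs, 86 came from the 3 cells without CD4 or CD8a tag. Trgc1, a constant segment of the γ chain, was counted with 42 UMIs in 6 cells and 6 UMIs in 4 cells. In the cycling cells of the KO label the γδ genes were therefore at the level of that library's non-cycling T cells, and under the WT label below it.

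The same 3 untagged cells carried most Il17a UMIs under the KO label. Il17a, the signature cytokine of that program, was at 250 CPM (199 to 310) with 82 UMIs in 5 cells, of which 72 UMIs were in the 3 untagged cells, and at 9.49 CPM (4.34 to 18) with 9 UMIs in 2 cells under the WT label. Non-cycling T cells were at 271 and 8.70 CPM. Rora, a nuclear receptor of type 17 and innate-like cells, was at 606 and 707 CPM, and Maf, a transcription factor of IL-17 producing cells, at 149 and 204 CPM, neither higher under the KO label. The list was at 2482 and 1100 CPM, a ratio of 2.26 (2.06 to 2.47), with 8 of 11 measured members over 2-fold higher and 1 lower under the KO label, where 2.51% and 7.18% of all genes were. Non-cycling T cells were at 3537 and 837 CPM, a wider gap between the labels than in cycling cells. The list was also higher under the KO label in CD4-tagged cycling cells, 2149 and 1460 CPM (ratio 1.47, 1.22 to 1.76), and in CD8a-tagged ones, 974 and 514 CPM (1.90, 1.51 to 2.39).

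The scavenger receptor gene Scart1 had the largest ratio between the labels by the interval bound nearer to 1. It was at 582 CPM (191 UMIs in 11 cells) under the KO label and 5.27 CPM (5 UMIs in 3 cells) with the WT label, beside 687 and 17.1 CPM in non-cycling T cells. It was not limited to untagged cells: 8 of 17 CD8a-tagged cycling cells had it under the KO label, 47.1%, beside 46.0% of CD8a-tagged non-cycling cells, and at 3000 UMIs 31.7% were expected beside 36.9%. Under the WT label 1 of 17 did, beside 1.97%, or 2.58% beside 1.17% at 3000 UMIs. The related gene Scart2 was counted with 32 UMIs in 6 cells and 1 UMI in 1 cell.

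Klrc1, which encodes the inhibitory NK receptor NKG2A, separated the CD8 cells of the labels. Under the KO label 15 of 17 CD8a-tagged cycling cells had a UMI, 88.2%, and 50.1% were expected to at 3000 UMIs, beside 32.8% of CD8a-tagged non-cycling cells at that depth. Under the WT label 3 of 17 had one, 17.6%, or 4.30% at 3000 UMIs, beside 5.74%. Its level over all cycling cells was 256 CPM (204 to 317) and 8.43 CPM (3.64 to 16.6). Il23r, the receptor chain for IL-23, was at 104 CPM in 5 cells under the KO label, with 26 of its 34 UMIs in untagged cells. It was at 0 UMIs in the 61 cells with the WT label, where 3 UMIs would be 3.16 CPM. Non-cycling T cells were at 123 and 45.0 CPM. Abi3bp, an extracellular matrix protein gene, was at 155 CPM in 4 cells and at 0 UMIs with the WT label. Untagged cells held 43 of its 51 UMIs, and non-cycling T cells were at 157 and 8.51 CPM. Setbp1 was at 125 CPM in 8 cells and 4.22 CPM in 2 cells, beside 102 and 53.0 CPM in non-cycling T cells.

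**Figure D5:**
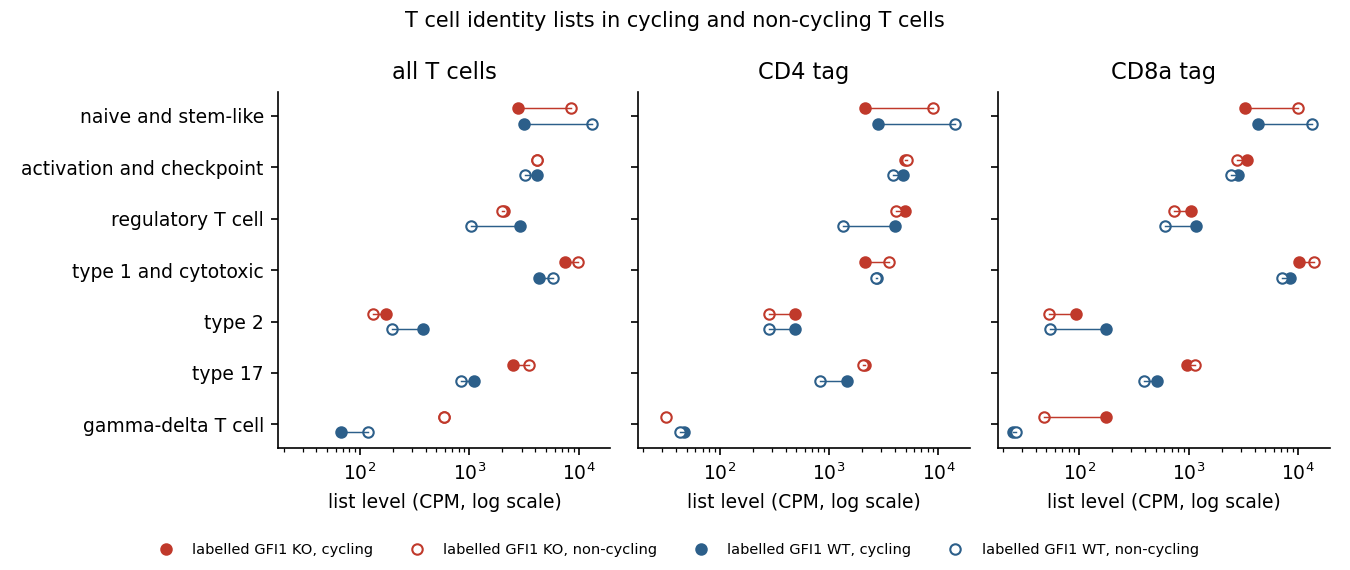
Summed level of T cell identity lists (CPM, log axis) in cycling (filled) and non-cycling (open) T cells of each label, over all T cells and within CD4-tagged and CD8a-tagged cells, with γδ genes at 0 UMIs in the 8 CD4-tagged cycling cells under the KO label and so not drawn. Naive and stem-like genes are lower in cycling cells in every panel, and the regulatory list has its widest gap in CD4-tagged cells under the WT label (3992 against 1333 CPM).

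Type 2 genes were sparse. The list of 11 summed to 174 CPM under the KO label and 374 CPM with the WT label, a ratio of 0.464 (0.344 to 0.615), beside 132 and 196 CPM in non-cycling cells. Gata3, the type 2 transcription factor that regulatory and CD8 cells also use, was at 107 CPM (74.2 to 148) and 198 CPM (171 to 229). In CD4-tagged cycling cells the list was at 488 and 487 CPM, and in CD8a-tagged ones at 93.2 and 177 CPM, a ratio of 0.527 (0.294 to 0.916), both below the CD4 class, which held 28.6% and 62.3% of cycling cells. The part of this class mix in the gap over all cells was not tested. The cytokine genes Il5 and Il13 were at 0 UMIs in cycling cells of both libraries. Areg, which encodes the repair factor amphiregulin and stands in the regulatory and innate lymphoid lists alike, was in 5 of 8 and 15 of 38 CD4-tagged cycling cells, beside 23.5% and 5.79% of non-cycling ones, and at 3000 UMIs 36.3% and 23.2% were expected beside 16.8% and 4.44%.

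Thymocyte genes were at 527 CPM under the KO label and 931 CPM with the WT label, and Themis, a T cell receptor signalling protein that mature T cells keep, supplied 423 and 686 CPM of that. Dntt, the enzyme that adds bases at receptor junctions in the thymus, was at 0 UMIs in the 28 cells of the KO label and at 26 UMIs in 2 cells of the WT label.

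Genes that were lower under the KO label by the same ranking included 4 of antigen presentation among the 8, and 3 cells held most of the class II UMIs. H2-Aa, H2-Ab1 and H2-Eb1, chains of MHC class II, summed to 2 UMIs in cycling cells under the KO label and 1105 UMIs in 22 of 61 cells with the WT label. There the 3 highest cells held 549, 509 and 24 UMIs, 97.9% of the total, and the fourth held 2. Of those 3 cells, 2 had at least 30 UMIs of the CD11c tag and 2 of the CD11b tag, both proteins of myeloid cells. Cd74, the invariant chain that escorts class II, was at 30.4 and 1171 CPM, and Ccl17, a chemokine of dendritic cells, at 0 UMIs and 211 CPM in 3 cells. Timd4, at 65.3 CPM, was in 2 cells. The class II genes and Cd74 were lower under the KO label in non-cycling T cells as well. There H2-Aa was at 8.80 and 135 CPM, H2-Ab1 at 5.87 and 141, H2-Eb1 at 2.61 and 118, and Cd74 at 29.0 and 377. A class II UMI was found in 7.14% and 36.1% of cycling cells, beside 6.25% and 16.7% of non-cycling ones. The other genes named by this ranking were Marcks at 80.1 CPM and Pkib at 61.1 CPM, both at 0 UMIs under the KO label. Of the 58 Pkib UMIs 52 were in 1 cell with neither tag, and of the 76 Marcks UMIs 45 were in 2 such cells. In non-cycling T cells Pkib went the other way, at 22.5 and 4.59 CPM.

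Marker lists of other cell types were therefore read in the same cells. The dendritic cell list summed to 12.2 CPM under the KO label, with 5 of 7 members at 0, and to 531 CPM under the WT label, where H2-Ab1 supplied 485 and Siglech was at 0. Flt3, Xcr1 and Clec9a, which define dendritic cells, had 13, 6 and 7 UMIs under the WT label and 0 under the KO label. The alveolar macrophage list was at 60.9 and 228 CPM, led by Chil3 with 16 and 112 UMIs. The monocyte list was not lower under the KO label, at 286 and 235 CPM (ratio 1.22, 0.947 to 1.56). Lyz2 led it with 47 and 86 UMIs. The endothelial list was at 146 and 296 CPM, led by Pecam1. The B cell list was at 171 and 245 CPM, led by Ighm, with Ms4a1 and Pax5 at 0. The NK cell list was at 143 and 60.1 CPM, led by Klre1, with Ncr1 at 0 and 5 UMIs. The epithelial list was at 277 and 380 CPM, led by Hopx, which T cells also express, and Scgb1a1 of club cells had 1 and 86 UMIs. Fibroblast and erythroid lists were at 0 CPM under the KO label and at 5.27 and 6.32 CPM with the WT label. The part of these cells or of free RNA in the results was not tested. Without the 3 cells with at least 3 class II UMIs, all from the WT label, the type 1 ratio between labels was 1.61.

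Surface tags described the cycling cells beside the RNA. The pan-leukocyte CD45 tag had medians of 1254.5 and 1048 UMIs on cycling and 923.5 and 688 UMIs on non-cycling T cells. KLRG1, a receptor of terminal effector cells, reached 30 UMIs on 1 of 28 and 8 of 61 cycling cells, beside 6.98% and 4.68% of non-cycling cells. CD196, the chemokine receptor CCR6, did so on 0 of 28 and 7 of 61, with medians of 3.5 and 10 UMIs. Of those 7 cells, 5 also passed 30 UMIs of the CD117 tag and 3 were the cells with the most CD11c, so the CD196 counts are not read as CCR6 protein. Ly-6G, a tag of neutrophils, did so on none of the cycling cells of either library, whereas CD11c did on 2 and 6 cells and CD11b on 1 and 3. An isotype control antibody passed 30 UMIs on 0 of 28 and 1 of 61 cells.

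Outside the cycle lists, the genes with the clearest gap from non-cycling T cells in both libraries included genes of chromosome copying and division. Esco2, which ties sister chromatids together by acetylating cohesin, was at 122 and 94.9 CPM beside 0.326 and 0.196 CPM, the latter 1 and 2 UMIs, and its ratios were 374 (63.3 to 15121) and 485 (130 to 4068). Neil3, a DNA glycosylase of replicating cells, was at 146 and 152 CPM beside 0.652 and 0.684. Asf1b, a chaperone that hands histones to new DNA, was at 219 and 160 CPM beside 7.82 and 6.16. Shcbp1, Dlgap5, Cit and Cip2a were also among them, at 82.2 to 152 CPM under the KO label and 88.5 to 145 CPM with the WT label.

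The 8 genes with the clearest lower level in cycling cells were of mixed function. Jun, a subunit of the immediate early factor AP-1, was at 30.4 and 74.8 CPM beside 424 and 492. Patj, a scaffold of cell polarity, was at 3.04 and 35.8 CPM beside 166 and 376. Dusp10, a phosphatase that turns off stress kinases, was at 76.1 and 293 CPM beside 616 and 1325. Kdm5b, a histone demethylase, was at 3.04 and 22.1 CPM beside 86.7 and 136, and Kif1b, Tcp11l2, Rflnb and Btg1 completed the set.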

How the data were processed

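Total live lung cells of 1 mouse labelled GFI1 KO and 1 labelled GFI1 WT were profiled with 10x Genomics 3′ chemistry and 18 antibody tags, none of them to CD3 or the T cell receptor. The authors deposited raw UMI counts per feature and called cell, without normalization. The file headers name Cell Ranger 9.0.1, and the submitters' processing notes name the GRCm39 build. A step against free RNA is not given in the sources used here.

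Python 3.11.15, numpy 2.4.6, scipy 1.17.1, pandas 2.3.3 and scanpy 1.11.5 were used. As in the study's methods, cells were kept with at least 500 UMIs, at least 200 genes and no more than 20% mitochondrial UMIs. The features held 33696 genes, of which 9527 (81 ribosomal, 13 mitochondrial and 9433 Gm-) stayed out of levels and lists, 18.8% and 16.3% of the UMIs under the KO and WT labels. Counts were summed per library and population and divided by the kept UMIs (CPM). Cycling cells gave 328410 and 948765 kept UMIs, so that 1 UMI was worth 3.04 and 1.05 CPM. Levels have exact Poisson intervals, ratios exact conditional binomial ones, shares exact Clopper-Pearson ones, and differences of shares combine both by square-and-add, all at 95% and for counting error only. Where a count was 0, the limit is that of 3 counts. Genes were counted as past 2-fold with at least 30 UMIs over both populations compared. Expected detection at 3000 UMIs is hypergeometric, and 41 and 65 shallower non-cycling T cells under the KO and WT labels were left out of it, with no cycling cell. The B cell reference was 1029 and 3374 cells. Doublets were kept, and their removal with Scrublet was an alternative. Ratio and share intervals were run on simulated counts drawn from the Poisson and binomial models that they assume. Those draws lack the clustering of UMIs by cell, so they cannot show how the intervals hold where few cells carry most UMIs.

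The main receptor class was read from RNA. The 30 tag UMIs that made a cell tag-positive came from earlier work on these data. Named genes were the rule genes and markers, in each list the 4 members with the most UMIs over the cycling cells and members needed to check a cell type, and by size the 8 highest and 8 lowest ratios between labels and between cycling and non-cycling cells, ranked by the interval bound nearer to 1. Genes named beyond these were Ccnd2, Cdk4, Ccr7, Dntt, Gzmb, Scgb1a1 and Smc4, chosen after their values were seen. A few genes that these rules would name are not reported here. The cells, gene lists and comparisons were chosen with earlier results of these data known. Alternatives changed the number of cycle genes or Cd3 UMIs required, the lineage genes, doublets, depth, the CPM denominator, the UMI minimum, the class definition and the class mix. In the depth alternative the Cd3, lineage and cycle gene rules were all read on thinned counts. Its cells are therefore not only the main ones at lower depth. Leaving out cells with myeloid or B cell tags, or with at least 3 class II UMIs, was added after seeing the data.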

Additional observations from a re-analysis of the deposited data

How the results depend on the processing

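Of 184 values recomputed under alternatives, 142 stayed within the interval of the main value (for gene counts, within 1.5 times of it), 40 moved beyond that and 2 changed direction from a main value whose interval did not hold equality. No paired analysis was possible because each label had 1 library, and none could be left out. The 2 reversals were the regulatory list ratio between labels, from 0.712 to 1.01 both when thinned to 3000 UMIs and with an equal class mix. It was 0.860 with 8 more lineage genes excluded and 0.875 with none. Requiring 3 cycle genes gave cycling to non-cycling ratios of replication and mitosis genes of 7.63 (KO) and 8.13 (WT), from 8.39 and 8.44. Requiring 5 gave 8.76 and 8.61, thinning 9.89 and 8.69, no lineage genes 7.81 and 7.43, CPM over all UMIs 9.24 and 9.40. The WT value was 8.72 with 8 more lineage genes, 8.80 without cells with myeloid or B cell tags and 8.69 without the 3 with at least 3 class II UMIs. The KO minus WT gap in replication share, 3.71 points, became 5.14 with 3 cycle genes, 2.10 thinned (-0.773 to 5.03), 2.40 with 8 more lineage genes and 2.12 without tagged cells. The γδ ratio of 8.71 fell to 5.13 with 8 more lineage genes. The type 17 ratio of 2.26 became 1.76 with them, 3.02 with an equal mix and 2.47 without tagged cells. The type 1 ratio of 1.70 became 1.53 with 3 cycle genes, 1.48 with 1 Cd3 UMI, 1.85 thinned, 1.52 and 1.92 with 8 more or no lineage genes, 1.32 with an equal mix, 1.54 without tagged cells and 1.61 without those 3 cells. The naive ratio of 0.883 became 0.587 thinned and 0.743 with an equal mix. Genes over 2-fold higher under the KO label, 166 of 6602, were 44 of 1024 thinned, 28 with at least 100 UMIs and 443 with at least 10. Those lower, 474, were 84, 102 and 1027, and 744 with no lineage genes excluded. Apart from the thinned and UMI minimum counts, which test other numbers of genes, the cause of these moves was not tested. The KO minus WT share of cycling T cells ran from 0.375 to 1.87 points over 10 alternatives, always positive, and its interval held 0 in all but the one with 3 cycle genes required (1.87, 0.256 to 3.79). The same difference among Cd4-alone cells ran from -0.421 to 3.34 and was positive in 9 of 11, with a main interval that held 0. The Cd8b1 share of cycling cells had an interval that held 0 in 5 of 11.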
